A study of Mus musculus with 8 samples.

Results

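Keratins, the proteins of the intermediate filaments of epithelial cells, were examined as a gene family in thymic epithelial cells (TECs) of the mouse embryo. Members were the genes whose symbol is Krt followed by a number and at most 1 letter, which gave 54 of the 55450 genes measured, with 28 type I and 26 type II keratins. RNA-sequencing libraries came from CD45-EpCAM+ TECs sorted at embryonic day 17 (E17) by the reporters of CCL21, the chemokine that attracts thymocytes to the medulla, and of RANK, the receptor encoded by *Tnfrsf11a*. All embryos carried both a *Ccl21a*-tdTomato knock-in and a *Tnfrsf11a*(RANK)-Venus transgene, so that the populations differ by reporter fluorescence and not by genotype. CCL21+RANK- TECs (3 libraries) had tdTomato but no Venus, CCL21-RANK+ TECs (3 libraries) had Venus but no tdTomato, and CCL21-RANK- TECs (2 libraries) had neither. The paper's reporting checklist calls its replicates biological. It and the other sources do not say whether libraries of a population came from separate embryos or litters, or whether embryos were pooled. The p-values therefore measure only the spread between these libraries.

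In every keratin filament a type I (acidic) keratin is paired with a type II (neutral or basic) keratin, and each kind of epithelium has its usual partners. *Krt8* and *Krt18* are the pair of simple epithelia, *Krt5* and *Krt14* the pair of the basal layer of stratified epithelia, *Krt1* and *Krt10* the pair of the suprabasal epidermis, and further sets build the hair shaft and its inner root sheath. In the thymus, *Krt8* and *Krt18* are used to mark cortical epithelium and *Krt5* and *Krt14* to mark medullary epithelium, and medullary TECs are known to transcribe genes of many other tissues.

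The TATA box, which places the start of transcription in a minority of mammalian promoters, can be looked for in the keratin promoters. RefSeq promoter sequences (GRCm38.p6) were matched by symbol to 36 of the 54 genes, with 37 promoters because *Krt13* has a pair. The windows below run from 45 bases before to 10 bases after the start site, 5′ to 3′ on the strand of the gene, and capitals mark the letters TATAAA where they lie between 45 and 6 bases before the start. They are shown for the 4 keratins with the highest mean in CCL21-RANK+ TECs among those called higher there that have a promoter in the table (*Krt20*, *Krt9*, *Krt77* and *Krt24*) and for the 2 most abundant keratins of all whose promoter in the table starts within 100 bases of the 5′ end of the gene (*Krt18* and *Krt5*).
Krt20: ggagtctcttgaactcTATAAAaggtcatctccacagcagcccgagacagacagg
Krt9: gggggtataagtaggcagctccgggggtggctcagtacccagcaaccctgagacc
Krt77: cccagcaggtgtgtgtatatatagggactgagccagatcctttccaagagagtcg
Krt24: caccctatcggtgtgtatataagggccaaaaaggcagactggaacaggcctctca
Krt18: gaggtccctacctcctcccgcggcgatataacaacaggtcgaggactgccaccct
Krt5: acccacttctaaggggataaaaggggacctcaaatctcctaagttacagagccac
The windows are chr11:99438144-99438198 (*Krt20*, minus strand), chr11:100193237-100193291 (*Krt9*, minus), chr15:101869696-101869750 (*Krt77*, minus), chr11:99285253-99285307 (*Krt24*, minus), chr15:102028171-102028225 (*Krt18*, plus) and chr15:101712896-101712950 (*Krt5*, minus). In 33 of the 37 keratin promoters the RefSeq start lay within 100 bases of the 5′ end of the GENCODE gene, while those of *Krt7*, *Krt8* and *Krt14* and 1 of *Krt13* lay 140 to 1518 bases inside the gene. Searched on the gene's strand between 45 and 6 bases before the start, TATAAA was found in 14 of the 37 keratin promoters (37.8%) and in 2.31% of all 32851 promoters of the table. In 12 of the 14 it began 26 to 31 bases before the start. The letters were found in that window in 7 of 19 promoters of keratins called higher in CCL21-RANK+ TECs when set against CCL21+RANK- TECs, in 0 of 4 of those called higher in CCL21+RANK- TECs (of which *Krt7* and *Krt8* have a start inside the gene), and in 7 of the 14 others. In the whole 300 bases and on both strands, TATAAA was found in 51.4% of keratin and 13.6% of all promoters, the letters GGGCGG (a GC box) in 5.41% against 35.7%, and TGANTCA (an AP-1 motif) in 5.41% against 7.81%. These are matches of letters, not evidence of a used site. Only the exact letters were searched, so a promoter without them may still hold a variant of the TATA box.

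Each library held between 42751858 and 71625319 expected counts, and keratins took 0.994%, 0.920% and 1.03% of them in CCL21+RANK- TECs, 0.476%, 0.478% and 0.394% for CCL21-RANK+ TECs, and 0.706% and 0.761% for CCL21-RANK- TECs, with libraries in the order of their replicate numbers. Levels are given as RPKM (reads per kilobase of exon, scaled to the total counts of the library), which allows levels of different genes to be set side by side. Fold changes are log2 values from the quasi-likelihood test of edgeR with Benjamini-Hochberg adjustment over the 21451 genes that passed the expression filter. A gene was called if its adjusted p was under 0.05, its fold change exceeded 1.5 and the population with the higher level had a mean above 1 RPKM. Of the 54 keratins, 48 passed the filter, and *Krt34*, *Krt35*, *Krt39*, *Krt40*, *Krt74* and *Krt82* did not. The 3 comparisons share libraries and are not independent of each other. An exact permutation test of 3 against 3 libraries cannot give a p below 0.1, and 3 against 2 none below 0.2, so tests rest on the model fitted across all genes. In these bulk libraries fewer cells of a type and less RNA per cell cannot be told apart.

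All libraries held transcripts of thymic epithelium. *Epcam*, *Cdh1* (E-cadherin) and *Foxn1*, the transcription factor that defines TECs, were at 49.5 RPKM or more in all 8 libraries. *Ptprc* (CD45) was at 0.576 RPKM or less in all 8 libraries, but 4 of 6 hematopoietic markers reached 1 RPKM, with *Rag1* the highest at 6.31 RPKM in a CCL21-RANK+ library. Parathyroid genes summed to 1750 to 7122 RPKM in CCL21+RANK- libraries and mesenchymal genes to 25.1 to 48.9 RPKM in CCL21-RANK+ libraries. Of the genes behind the sort, *Tnfrsf11a* had means of 9.50, 104 and 2.44 RPKM in CCL21+RANK-, CCL21-RANK+ and CCL21-RANK- TECs. *Ccl21a* was at 560.7, 346 and 305.5 RPKM, then 152, 95.9 and 78.2 RPKM, then 6.89 and 8.88 RPKM, in the same order. The CCL21-RANK+ libraries, sorted as tdTomato-negative, thus held *Ccl21a* transcripts at a level between those of the other populations. *Psmb11*, a thymoproteasome subunit of cortical TECs, had a mean of 267 RPKM among CCL21+RANK- libraries, 20.7 RPKM among CCL21-RANK+ libraries and 296 RPKM among CCL21-RANK- libraries.

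The keratin profile differed in its leading members. Summed over the family, keratin RPKM was 5551 ± 344 (SD, n = 3) in CCL21+RANK-, 2458 ± 255 (SD, n = 3) in CCL21-RANK+ and 4358 ± 221 (SD, n = 2) in CCL21-RANK- TECs. *Krt18*, *Krt8*, *Krt5* and *Krt17* together made up 97.9%, 88.7% and 98.7% of it. In CCL21+RANK- TECs the order was *Krt18*, *Krt8*, *Krt5* and *Krt17*, and the last pair had overlapping libraries. In CCL21-RANK+ TECs *Krt17* was highest in all 3 libraries, followed by *Krt8*, and *Krt18* and *Krt5* overlapped. In CCL21-RANK- TECs the order was *Krt18*, *Krt8*, *Krt17* and *Krt5* in both libraries. Only 9 keratins had a mean of at least 1 RPKM in all 3 populations, and 25 others reached it in CCL21-RANK+ TECs alone.

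**Figure D1:**
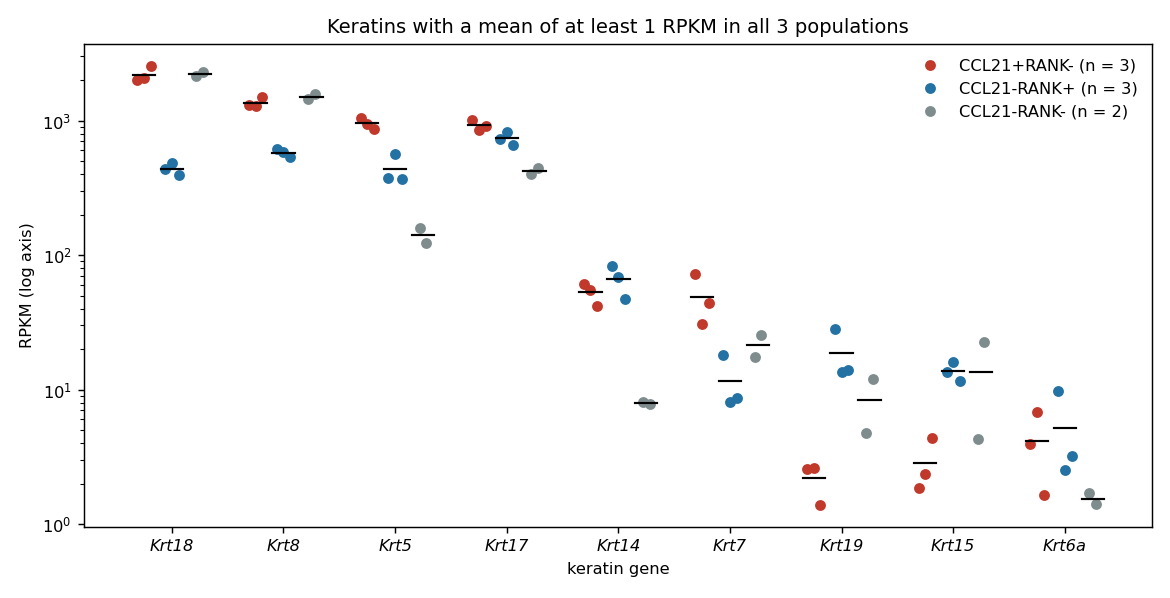
RPKM (log axis) of the 9 keratins with a mean of at least 1 RPKM in all 3 populations. Points are libraries and black lines are means. *Krt18* and *Krt8* were lowest in the CCL21-RANK+ libraries, and *Krt5*, *Krt17* and *Krt14* lowest in the CCL21-RANK- libraries.

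The sort was made to compare the transcriptomes of chemokine-expressing and RANK-expressing embryonic TECs. Between CCL21+RANK- and CCL21-RANK+ TECs, 4 keratins were called higher in CCL21+RANK- TECs (*Krt5*, *Krt7*, *Krt8* and *Krt18*), 28 had the opposite call, and 16 tested keratins were not called. Of all tested genes 15.4% were called in each direction and 30.9% in either. The median log2 fold change, CCL21+RANK- over CCL21-RANK+, was -5.69 over the 48 tested keratins and -0.11 over all tested genes. With the 7 tested keratins at 0 counts in all CCL21+RANK- libraries set to the bound that a floor of 3 counts allows, the keratin median was -4.60. Many of these keratins passed the filter only through the CCL21-RANK+ libraries, so the median does not describe all 54. For the same reason the shares of all tested genes are not a like background for the keratin calls. An adjusted p under 0.05 alone was reached by 41 keratins, against 53.7% of all tested genes.

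The simple keratins did not move together. *Krt18* (chr15:102028180-102032027), the type I partner of *Krt8*, was at 1989, 2058 and 2546 RPKM in CCL21+RANK- TECs, at 435, 480.4 and 394 RPKM among CCL21-RANK+ libraries, and at 2161 and 2300 RPKM among CCL21-RANK- libraries. Every CCL21-RANK+ library was below every other library. Its log2 fold change was 2.44 ± 0.15 (SE) for CCL21+RANK- over CCL21-RANK+ (adjusted p = 1.72e-06, edgeR) and -0.02 ± 0.16 for CCL21+RANK- over CCL21-RANK- TECs (adjusted p = 0.985, edgeR). *Krt8* (chr15:101996698-102004482) was at 1309, 1280 and 1495 RPKM, then 609.6, 579 and 531 RPKM, then 1443 and 1570 RPKM, in the same order of populations. It too was lowest in all CCL21-RANK+ libraries, but by less, with log2 fold changes of 1.37 ± 0.12 (SE, adjusted p = 1.5e-05, edgeR) for CCL21+RANK- over CCL21-RANK+ and -1.51 ± 0.14 (SE, adjusted p = 1.63e-05, edgeR) for CCL21-RANK+ over CCL21-RANK- TECs. The ratio of *Krt18* to *Krt8* RPKM was 1.52, 1.61 and 1.70 in CCL21+RANK-, 0.713, 0.831 and 0.741 in CCL21-RANK+, and 1.497 and 1.47 in CCL21-RANK- libraries. *Krt18* was thus above *Krt8* in 5 of 5 libraries without Venus and below it in 3 of 3 libraries with Venus, a difference larger than the spread between libraries that was described and not tested.

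*Krt7*, a type II keratin of glandular and ductal epithelium, was at 71.9, 30.6 and 44.2 RPKM in CCL21+RANK- TECs, at 17.99, 8.09 and 8.64 RPKM among CCL21-RANK+ libraries, and at 17.4 and 25.4 RPKM among CCL21-RANK- libraries. All CCL21+RANK- libraries were above the rest, and the others overlapped. The log2 fold change to CCL21-RANK+ TECs was 2.21 ± 0.34 (SE, adjusted p = 0.000485, edgeR). CCL21+RANK- replicate 1, the highest for *Krt7*, was also the highest for parathyroid genes (*Pth*, *Gcm2*, *Chga* and *Casr*, of which *Chga* was most abundant), with 7122 summed RPKM against 1750 and 1955 RPKM in replicates 2 and 3 and at most 24.9 RPKM in the other populations. Without that library the log2 fold change of *Krt7* was 1.82 (adjusted p = 0.000924, edgeR), and those of *Krt18*, *Krt8* and *Krt5* were 2.51, 1.39 and 1.18. The part of parathyroid transcripts in the levels of CCL21+RANK- TECs was not tested.

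The other pair of simple keratins went the opposite way. *Krt20*, a type I keratin of differentiated gut epithelium and urothelium, was at 0.00870, 0.0677 and 0 RPKM in CCL21+RANK- TECs, at 30.2, 12.6 and 12.7 RPKM among CCL21-RANK+ libraries, and at 0.131 and 0.0290 RPKM among CCL21-RANK- libraries. It was close to absent outside CCL21-RANK+ TECs. Its log2 fold change was -9.45 ± 0.77 (SE, CCL21+RANK- over CCL21-RANK+, adjusted p = 7.45e-06, edgeR). The CCL21+RANK- libraries held 1, 6 and 0 counts of *Krt20*, and the value was -11.62 without their replicate 2 and -8.81 without their replicate 3. *Krt19*, a type I keratin of simple epithelia and some basal cells, exceeded its CCL21+RANK- level in CCL21-RANK+ TECs (log2 fold change -2.93 ± 0.41, SE, adjusted p = 0.000253, edgeR), with means of 18.5 and 2.19 RPKM. Of the 5 simple keratins, 3 were thus called higher in CCL21+RANK- TECs (*Krt7*, *Krt8* and *Krt18*) and the other 2 in CCL21-RANK+ TECs. This stands beside 15.4% of all tested genes called in each direction.

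The basal pair *Krt5* and *Krt14* was lowest in CCL21-RANK- TECs. *Krt5* (chr15:101707070-101712898) had mean RPKMs of 953, 434 and 140.4 in CCL21+RANK-, CCL21-RANK+ and CCL21-RANK- TECs, and the libraries of the 3 populations did not overlap. Its type I partner *Krt14* (chr11:100203162-100207548) was at 61.3, 55.1 and 41.8 RPKM, then 82.4, 68.1 and 47.3 RPKM, then 8.03 and 7.74 RPKM. The first 2 populations overlapped, and their log2 fold change of -0.18 ± 0.21 (SE) did not pass the test (adjusted p = 0.487, edgeR). The ratio of *Krt5* to *Krt14* RPKM was 17.1, 17.1 and 20.8 in CCL21+RANK-, 4.55, 8.23 and 7.78 in CCL21-RANK+, and 19.7 and 15.8 in CCL21-RANK- libraries. It was lowest in the 3 CCL21-RANK+ libraries, and *Krt5* but not *Krt14* was called lower there than in CCL21+RANK- TECs. *Krt14* reads can be shared with its relatives: the longest transcripts of *Krt14* and *Krt16* were 84.7% identical and those of *Krt14* and *Krt17* 82.3%, and 7 of 8 libraries had a *Krt14* count that was not whole. *Krt5* and *Krt8* counts were not whole in any of the 8 libraries, and *Krt5* and *Krt6a* transcripts were 79.6% identical.

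*Krt15*, a type I keratin of basal cells and of the hair follicle stem cell region, was at 1.87, 2.34 and 4.37 RPKM in CCL21+RANK- TECs, at 13.5, 16.2 and 11.5 RPKM among CCL21-RANK+ libraries, and at 4.32 and 22.6 RPKM among CCL21-RANK- libraries. The CCL21-RANK+ libraries lay close together, while the CCL21-RANK- libraries lay on either side of them. The log2 fold change of CCL21+RANK- over CCL21-RANK+ TECs was -2.17 ± 0.50 (SE, adjusted p = 0.00485, edgeR), and that over CCL21-RANK- TECs was -2.20 ± 0.53 (SE, adjusted p = 0.0272, edgeR). The latter rested on CCL21-RANK- replicate 2, without which it was -0.69 (adjusted p = 0.459, edgeR).

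Among the keratins of activated epidermis, *Krt17* (chr11:100256217-100261029), which epithelium expresses on injury and in the hair follicle, was at 1015, 852 and 907 RPKM in CCL21+RANK-, 724, 821 and 661 RPKM in CCL21-RANK+, and 399 and 447 RPKM in CCL21-RANK- TECs. The 3 populations did not overlap. The log2 fold changes over CCL21-RANK- TECs were 1.13 ± 0.16 (SE, adjusted p = 0.00224, edgeR) for CCL21+RANK- and 0.69 ± 0.16 (SE, adjusted p = 0.00578, edgeR) for CCL21-RANK+ TECs, and the difference of 0.45 ± 0.14 between the latter populations was below the 1.5-fold threshold (adjusted p = 0.0215, edgeR). That difference did not pass the test without CCL21+RANK- replicate 1 or 2 (adjusted p = 0.0683 and 0.0502, edgeR). Nor did it without CCL21-RANK+ replicate 3 (0.0983, edgeR) or with at least 10 counts in every library (0.0703, edgeR). The ratio of *Krt17* to *Krt5* RPKM was 0.904 to 1.04 in CCL21+RANK-, 1.47 to 1.93 in CCL21-RANK+ and 2.52 to 3.65 in CCL21-RANK- libraries. *Krt16*, its relative, was at 0.938, 0.655 and 0.541 RPKM in CCL21+RANK- TECs, at 22.7, 9.05 and 12.96 RPKM among CCL21-RANK+ libraries, and at 0.525 and 0.491 RPKM among CCL21-RANK- libraries. It was higher in every CCL21-RANK+ library, with a log2 fold change of -4.23 ± 0.36 (SE, CCL21+RANK- over CCL21-RANK+, adjusted p = 9.94e-06, edgeR). The type II partner *Krt6a* ranged from 1.40 to 9.77 RPKM over the 8 libraries, with CCL21+RANK- libraries overlapping those of both other populations, and was not called in any comparison. All its CCL21-RANK+ libraries lay above both CCL21-RANK- libraries, with a log2 fold change of 1.58 ± 0.68 (SE, adjusted p = 0.0796, edgeR) that passed the test with DESeq2 (1.75, adjusted p = 0.0152). *Krt6a* and *Krt6b* transcripts were 93.3% identical, so their counts are uncertain.

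**Figure D2:**
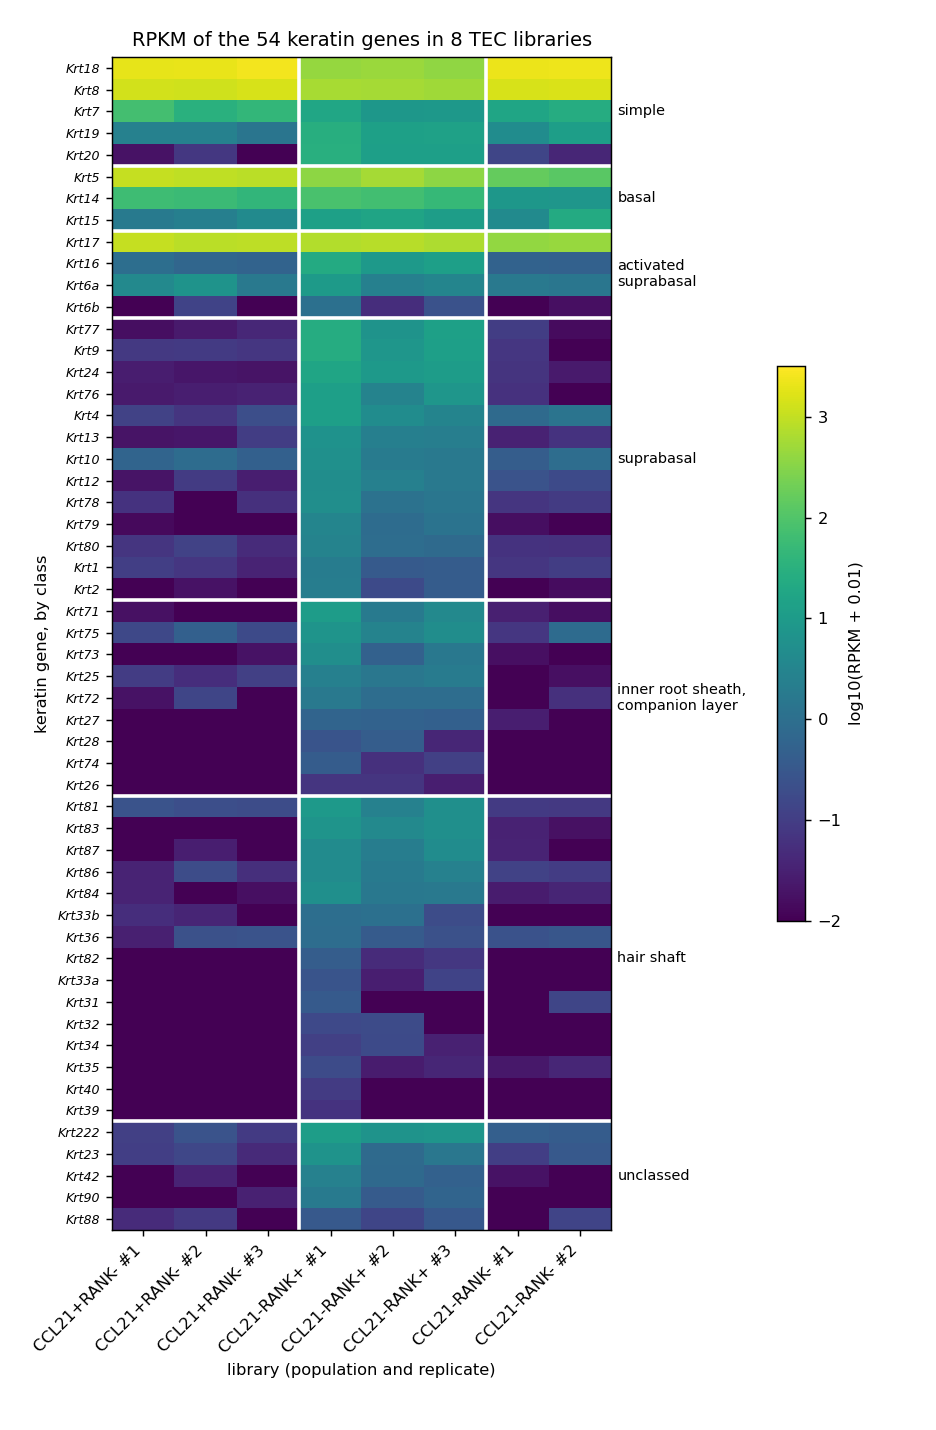
RPKM of all 54 keratins (rows, by class) in the 8 libraries (columns), on a log10(RPKM + 0.01) colour scale. *Krt18*, *Krt8*, *Krt5*, *Krt14* and *Krt17* are at 7.74 RPKM or more in all libraries, and the suprabasal, inner root sheath, hair shaft and unclassed keratins had their highest means in CCL21-RANK+ TECs.

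The suprabasal keratins of stratified epithelia were the class with most calls. Of 13 members, 11 were called higher in CCL21-RANK+ TECs when set against CCL21+RANK- TECs (15.4% of all tested genes), and all 13 had an adjusted p under 0.05 in edgeR (53.7% of all tested genes). For all 13 the lowest CCL21-RANK+ library lay above the highest CCL21+RANK- library, as it did for 36.9% of all tested genes. Members such as *Krt24* (2, 1 and 1 counts in CCL21+RANK- libraries) passed the filter only through the CCL21-RANK+ libraries. All tested genes are therefore not a like background for these counts. *Krt1* and *Krt2* stayed below the threshold of 1 RPKM, with means of 0.916 and 0.901 RPKM in CCL21-RANK+ TECs. *Krt77*, found in sweat gland ducts and developing skin, was at 25.9, 6.78 and 13.4 RPKM among CCL21-RANK+ libraries and at 0.0911 RPKM or less in the other 5. *Krt9*, the keratin of palm and sole skin, was at 25.7, 7.82 and 12.5 RPKM against 0.0758 RPKM or less. *Krt24* was at 17.4, 9.49 and 11.0 RPKM against 0.0562 RPKM or less.

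*Krt76*, a keratin of the palate, was at 12.8, 2.86 and 7.72 RPKM in CCL21-RANK+ TECs and at 0.0513 RPKM or less elsewhere. The mucosal pair of the oesophagus and tongue, *Krt4* and *Krt13*, had means of 6.76 and 3.66 RPKM in CCL21-RANK+ TECs and of 0.125 and 0.0369 RPKM in CCL21+RANK- TECs. *Krt12*, the keratin of the cornea, had means of 3.05 and 0.0369 RPKM. The epidermal keratin *Krt10* was the suprabasal keratin with the highest level in CCL21+RANK- TECs (0.643 RPKM) and had the smallest log2 fold change of the class, -2.12 ± 0.53 (SE, adjusted p = 0.00765, edgeR). It was at 5.85, 1.94 and 1.65 RPKM in CCL21-RANK+ libraries, and without replicate 1 the value was -1.39 (adjusted p = 0.0263, edgeR). Its type II partner *Krt1* was below it in all 8 libraries. *Krt78*, *Krt79* and *Krt80* had means of 2.58, 1.76 and 1.55 RPKM in CCL21-RANK+ TECs and of 0.0687 RPKM or less in CCL21+RANK- TECs.

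Keratins of the hair follicle, a structure the thymus does not have, were detected in the same libraries. Of the 9 keratins of the inner root sheath and companion layer, 8 passed the filter and 5 were called higher in CCL21-RANK+ TECs when set against CCL21+RANK- TECs, beside 15.4% of all tested genes. Members such as *Krt71* and *Krt73* passed the filter only through the CCL21-RANK+ libraries, so that share is not a like background. *Krt71* was at 11.0, 1.86 and 3.79 RPKM and *Krt73* at 5.15, 0.497 and 1.61 RPKM among CCL21-RANK+ libraries. *Krt71* had 1940 counts in the 3 CCL21-RANK+ libraries and 1 count in the 3 CCL21+RANK- libraries, a ratio of 2077 scaled to library totals with a 95% counting interval of 372 to 82080. Its log2 fold change of -10.36 was -9.45 without CCL21-RANK+ replicate 1. The 1 count lay in CCL21+RANK- replicate 1, so the ratio has no exact value without that library. *Krt75* of the companion layer had a mean of 4.99 RPKM, *Krt25* of 1.98 RPKM and *Krt72* of 1.16 RPKM, against 0.257, 0.0761 and 0.0464 RPKM in CCL21+RANK- TECs. The type I partners *Krt26*, *Krt27* and *Krt28* were at 0 counts in all CCL21+RANK- libraries and had means of at most 0.533 RPKM in CCL21-RANK+ TECs.

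Of the 15 hair shaft keratins, 10 passed the filter and 5, all of them type II, were called higher in CCL21-RANK+ TECs, beside 15.4% of all tested genes. Members such as *Krt83*, *Krt84* and *Krt87* passed the filter only through the CCL21-RANK+ libraries, so that share is not a like background. *Krt83* was at 6.86, 3.94 and 5.59 RPKM in CCL21-RANK+ TECs and had 0 counts in the 3 CCL21+RANK- libraries, so it was at least 545-fold higher (floor of 3 counts over the group). *Krt81* was at 9.15, 2.60 and 5.52 RPKM and *Krt87* at 4.59, 2.14 and 4.75 RPKM, with 0.245 and 0.0191 RPKM or less in CCL21+RANK- TECs. *Krt86* and *Krt84* had means of 2.94 and 2.88 RPKM against 0.0830 and 0.0107 RPKM. Counts may be divided among these relatives, since *Krt81* and *Krt83* transcripts were 90.4% identical and *Krt81* and *Krt86* 88.1%, and each of *Krt81*, *Krt83*, *Krt86* and *Krt87* had counts that were not whole in 3 libraries. The type I hair shaft keratins stayed low: *Krt33b* had the highest mean, 0.725 RPKM in CCL21-RANK+ TECs, so that no member could reach the threshold of 1 RPKM. Of the unclassed keratins, the keratin-like *Krt222* was at 11.3, 6.83 and 7.55 RPKM in CCL21-RANK+ TECs against 0.251 RPKM or less in CCL21+RANK- TECs, and *Krt23* and *Krt42* were also called higher, with means of 2.99 and 1.27 RPKM. *Krt23* was at 6.70, 0.777 and 1.48 RPKM and *Krt42* at 2.55, 0.746 and 0.504 RPKM in CCL21-RANK+ libraries.

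The number of keratins at 1 RPKM or more was 39, 30 and 32 for CCL21-RANK+ TECs, 9 in each CCL21+RANK- library, and 9 and 10 for CCL21-RANK- TECs. Counts above the floor of 3 were found for 54, 49 and 46 keratins in CCL21-RANK+ libraries, for 23 to 26 in CCL21+RANK- libraries and for 28 and 29 in the deeper CCL21-RANK- libraries. Of the 54 keratins, 17 had 3 or fewer counts in each of the 5 libraries without Venus. Counts by RPKM, by the floor and by highest mean are not given here for all genes. They therefore do not show a trait particular to keratins. The other 19 keratins, which reached a mean of 1 RPKM in no population and were not called, all had their highest mean in CCL21-RANK+ TECs, between 0.0178 and 0.916 RPKM. Against CCL21+RANK- TECs, 8 of these had an adjusted p under 0.05 in edgeR, beside 53.7% of all tested genes, and 6 had not passed the filter.

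The level of the keratins called higher in CCL21-RANK+ TECs also differed among CCL21-RANK+ libraries. Replicate 1 was the highest in 26 of the 28 keratins, with a median of 1.65 times the population mean, whereas it was the highest in 65.9% of all 3307 genes called higher in CCL21-RANK+ TECs, with a median of 1.17 times. Without that library 25 keratins were called, since *Krt42*, *Krt72* and *Krt80* no longer had a mean over 1 RPKM. The deepest of the 3 libraries was replicate 1, with 57286773 counts. Mesenchymal markers were also highest in replicate 1: the 6 genes summed to 48.9, 25.1 and 31.1 RPKM in CCL21-RANK+ libraries and to 3.27 RPKM or less in the others, *Col1a1* was the most abundant with 24.01, 7.43 and 15.4 RPKM, 5 of 6 reached 1 RPKM, and the defining marker *Pdgfra* was at 0.122 RPKM or less in CCL21-RANK+ libraries and at 0.2625 RPKM or less in all 8. Hematopoietic markers summed to 18.4, 8.30 and 14.8 RPKM in CCL21-RANK+ libraries and to 2.73 to 10.01 RPKM in the others, with *Rag1* the most abundant, 4 of 6 at 1 RPKM or more and *Ptprc* at the level given above, and endothelial markers to 2.03 RPKM or less everywhere. The part of such cells in the keratin levels was not tested. *Aire*, the medullary regulator of ectopic tissue genes, looked up after the keratin values were seen, was at 131, 94.1 and 114 RPKM in CCL21-RANK+ libraries and at 0.810 RPKM or less in the others.

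**Figure D3:**
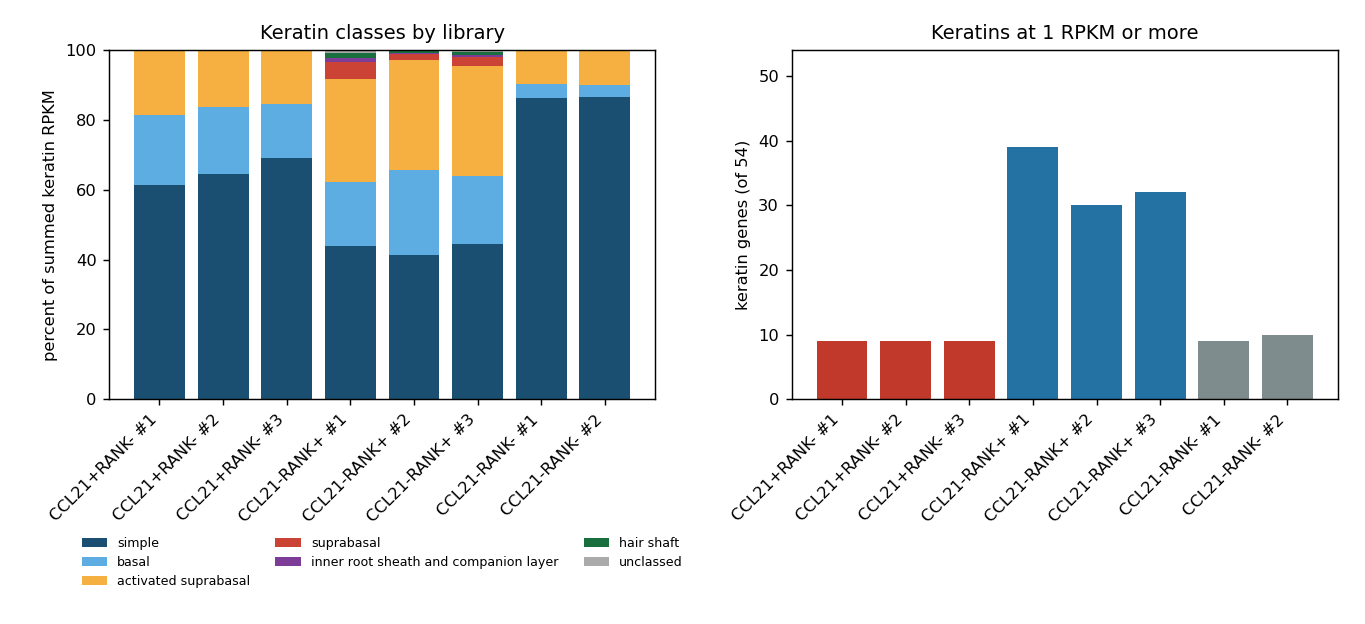
Left, share of the summed keratin RPKM held by each class in each library. Right, number of the 54 keratins at 1 RPKM or more. The CCL21-RANK+ libraries had the smallest share of simple keratins, 41.3% to 44.3%, and 30 to 39 keratins at 1 RPKM or more against 9 or 10 in the other libraries.

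As shares of the summed keratin RPKM, simple keratins held 64.9% ± 3.9 (SD, n = 3) in CCL21+RANK-, 43.1% ± 1.6 (SD, n = 3) in CCL21-RANK+ and 86.4% ± 0.17 (SD, n = 2) in CCL21-RANK- TECs. Basal keratins held 18.3%, 20.8% and 3.72%, and activated keratins, almost all of it *Krt17*, 16.8%, 30.8% and 9.74%. Suprabasal keratins held 0.0205%, 3.06% and 0.0526%, and hair shaft keratins 0.00897%, 0.935% and 0.0131%. The 50 keratins other than *Krt5*, *Krt8*, *Krt17* and *Krt18* summed to 418, 203 and 213 RPKM in CCL21-RANK+ libraries, to 144, 101 and 95.9 RPKM in CCL21+RANK- libraries, and to 39.9 and 74.7 RPKM in CCL21-RANK- libraries. The ratio of type I to type II RPKM was 1.34 ± 0.0975 (SD, n = 3), 1.24 ± 0.0123 (SD, n = 3) and 1.61 ± 0.0226 (SD, n = 2), so that type I keratins were in excess in all 8 libraries and least in CCL21-RANK+ TECs. CCL21+RANK- replicate 1, at 1.26, lay next to CCL21-RANK+ replicate 1, at 1.25.

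Comparing CCL21+RANK- with CCL21-RANK- TECs, 3 keratins were called higher in CCL21+RANK- TECs (*Krt5*, *Krt14* and *Krt17*), 3 higher in CCL21-RANK- TECs (*Krt4*, *Krt15* and *Krt19*) and 42 tested keratins were not called, beside 4.35% and 3.66% of all tested genes called in the same directions and 8.02% in either. The median log2 fold change was -0.16 for tested keratins and 0 for all genes. *Krt5* had a log2 fold change of 2.76 ± 0.28 (SE, adjusted p = 0.000439, edgeR) and *Krt14* of 2.75 ± 0.26 (SE, adjusted p = 0.000325, edgeR), so the basal pair differed by nearly the same amount. *Krt4* had means of 0.125 and 1.05 RPKM, near the threshold, and a log2 fold change of -3.05 ± 0.60 (SE, adjusted p = 0.0110, edgeR). *Krt19* was at 2.55, 2.63 and 1.39 RPKM in CCL21+RANK- and at 4.78 and 11.9 RPKM in CCL21-RANK- libraries (log2 fold change -1.88 ± 0.43, SE, adjusted p = 0.0209, edgeR). Neither call held without CCL21-RANK- replicate 2, which leaves 1 library in that population and gave log2 fold changes of -2.72 for *Krt4* and -1.19 for *Krt19*. Of *Krt4*, *Krt15* and *Krt19*, 2 also did not pass the test without CCL21+RANK- replicate 2, and 1 did not without its replicate 1.

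Between CCL21-RANK+ and CCL21-RANK- TECs, 29 keratins were called higher in the former and 3 lower (*Krt7*, *Krt8* and *Krt18*), beside 14.4% and 15.1% of all tested genes and 29.5% in either direction. The median log2 fold change was 5.44 over the tested keratins (4.73 with the 6 at 0 counts in both CCL21-RANK- libraries set to their bound) and 0.06 over all genes, again over keratins that often passed the filter only through the CCL21-RANK+ libraries. *Krt14* had a log2 fold change of 2.94 ± 0.27 (SE, adjusted p = 1.8e-05, edgeR) and *Krt5* of 1.51 ± 0.26 (SE, adjusted p = 0.00115, edgeR). The call of *Krt7* (log2 fold change -1.01 ± 0.36, SE, adjusted p = 0.0416, edgeR) was lost under other scalings. Those of *Krt4*, *Krt7*, *Krt10*, *Krt23* and *Krt72* were lost without CCL21-RANK- replicate 1, which leaves 1 library in that population. In each case 1 of these keratins did not pass the test without CCL21+RANK- replicate 2 or 3, CCL21-RANK+ replicate 2 or 3, or *Gm26917* and *Gm42418*. The same held with at least 10 counts in every library. A loss was also seen without CCL21-RANK- replicate 2, which again leaves 1 library in that population.

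The keratins lie in clusters on chromosomes 11 and 15. The 27 keratins at chr11:99232761-100269871 (GRCm38) are all type I, and 13 were called higher in CCL21-RANK+ TECs when set against CCL21+RANK- TECs. The 27 at chr15:101347444-102032027 comprise the 26 type II keratins and *Krt18*, and 15 were called higher, beside 15.4% of all tested genes. The chromosome 11 cluster includes a gap of 468 kb between *Krt40* and *Krt33a*, filled with keratin-associated protein (*Krtap*) genes of the hair shaft, which were looked up after the keratin values were seen. Of the 23 *Krtap* genes in the cluster 1 passed the filter, 0 had over 3 counts in all CCL21-RANK+ libraries, and their highest level in any library was 0.918 RPKM. Keratins flanking them on both sides, *Krt39*, *Krt40*, *Krt33a*, *Krt33b*, *Krt34*, *Krt31*, *Krt32* and *Krt35*, had means of 0.725 RPKM or less in CCL21-RANK+ TECs, with *Krt33b* the highest and the others at 0.132 RPKM or less.

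**Figure D4:**
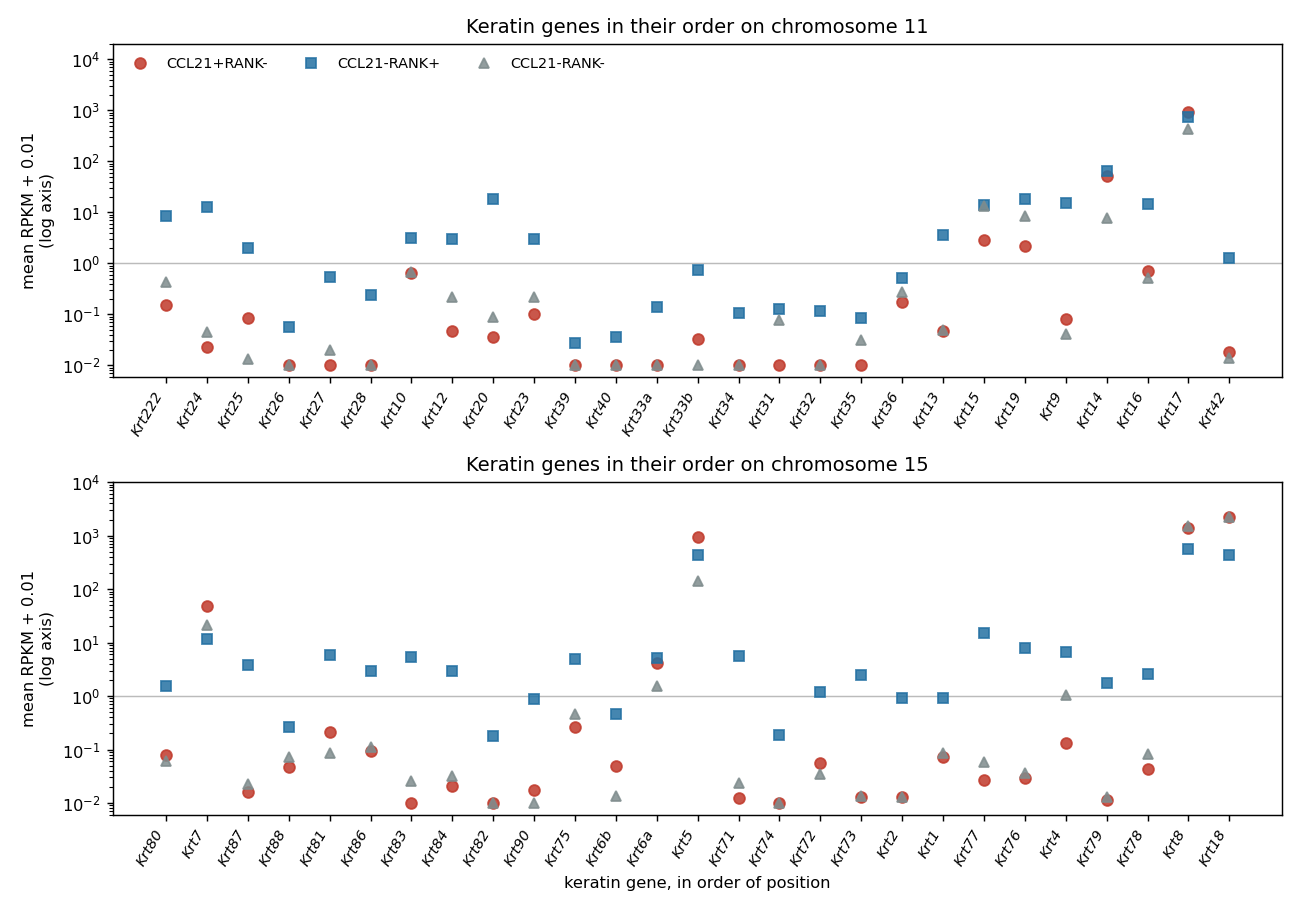
Mean RPKM + 0.01 (log axis) of the keratins in their order on chromosome 11 (top) and chromosome 15 (bottom). The grey line marks 1 RPKM. CCL21-RANK+ values (squares) are the highest for most genes, and the genes between *Krt39* and *Krt36* on chromosome 11 stay below 1 RPKM in all populations.

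Keratin filaments are anchored at desmosomes and hemidesmosomes, and 34 genes of these anchors, of keratin-binding proteins and of other intermediate filaments, called partners here, were examined, of which 33 passed the filter. Between CCL21+RANK- and CCL21-RANK+ TECs, 16 were called higher in CCL21+RANK- and 11 higher in CCL21-RANK+ TECs, beside 15.4% of all tested genes in each direction, with a median log2 fold change of 0.51 beside -0.11 for all genes. The desmosome genes were mostly on the side of *Krt8* and *Krt18*. Of 10, 7 were called higher in the former population and only *Pkp2* in the latter. *Dsp* (desmoplakin), which binds the filament to the desmosome, was at 375, 290 and 286 RPKM in CCL21+RANK- TECs, at 89.6, 51.4 and 50.6 RPKM among CCL21-RANK+ libraries, and at 186 and 300 RPKM among CCL21-RANK- libraries. The CCL21-RANK+ libraries were the lowest and did not overlap with either population. *Dsc3*, a desmosomal cadherin of basal cells, had a log2 fold change of 3.00 ± 0.16 (SE, adjusted p = 8.83e-07, edgeR) over CCL21-RANK+ TECs and was highest in CCL21-RANK- TECs, with means of 20.6, 2.77 and 56.1 RPKM. Of 6 hemidesmosome genes, 3 were called higher in CCL21+RANK- TECs, led by *Dst* (dystonin), with means of 33.7 and 5.75 RPKM, and *Itga6* higher in CCL21-RANK+ TECs. The envelope linkers *Evpl* and *Ppl*, which tie filaments to the cornified envelope, were higher in CCL21-RANK+ TECs, and *Eppk1* (epiplakin) was higher in CCL21+RANK- TECs.

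Of 6 tested genes of keratin-binding proteins, 2 were called in each direction between CCL21+RANK- and CCL21-RANK+ TECs, beside 15.4% of all tested genes. *Tchh* (trichohyalin), which bundles keratins in the inner root sheath of the hair, was at 15.98, 2.685 and 6.70 RPKM in CCL21-RANK+ libraries and at 1.11 to 2.79 RPKM in the others (log2 fold change -1.66 ± 0.47, SE, CCL21+RANK- over CCL21-RANK+, adjusted p = 0.0142, edgeR). CCL21-RANK+ replicate 2 lay below the highest CCL21+RANK- library. *Flg* (filaggrin) had a mean of 0.856 RPKM in CCL21-RANK+ TECs and was not called, and *Hrnr* (hornerin) was at 1.71, 1.03 and 1.43 RPKM there and at 0 counts in CCL21+RANK- TECs. Of the genes counted above, those of other intermediate filaments, which are not anchors of keratin, gave 3 of the 16 and 5 of the 11 calls, with *Synm*, *Nes* and *Gfap* called higher in CCL21+RANK- TECs and *Vim*, *Des*, *Lmna*, *Lmnb1* and *Lmnb2* higher in CCL21-RANK+ TECs. *Synm* (synemin) was at 44.4, 28.5 and 42.7 RPKM against 2.34, 2.87 and 2.19 RPKM, a log2 fold change of 4.07 ± 0.19 (SE, adjusted p = 4.75e-07, edgeR). *Vim* (vimentin), the filament of mesenchymal cells, was at 76.7, 94.7 and 99.7 RPKM in CCL21-RANK+ libraries, with replicate 1 the lowest, and at 18.2 RPKM or less elsewhere. Over CCL21-RANK- TECs, 8 partners were called higher and 4 lower in CCL21+RANK- TECs, beside 4.35% and 3.66% of all tested genes, with a median of 0.63. Among those called, the largest log2 fold changes were 2.59 for *Des* (desmin), 2.56 for *Pkp1* (plakophilin of the desmosome), 2.27 for *Eppk1* and -1.78 for *Evpl*. Between CCL21-RANK+ and CCL21-RANK- TECs, 12 were called in each direction, beside 14.4% and 15.1% of all tested genes, with a median of 0.33. Among those called, *Hrnr*, *Pkp2*, *Dsc3* and *Des* had the largest log2 fold changes, 8.84, 5.57, -4.45 and 4.43.

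**Figure D5:**
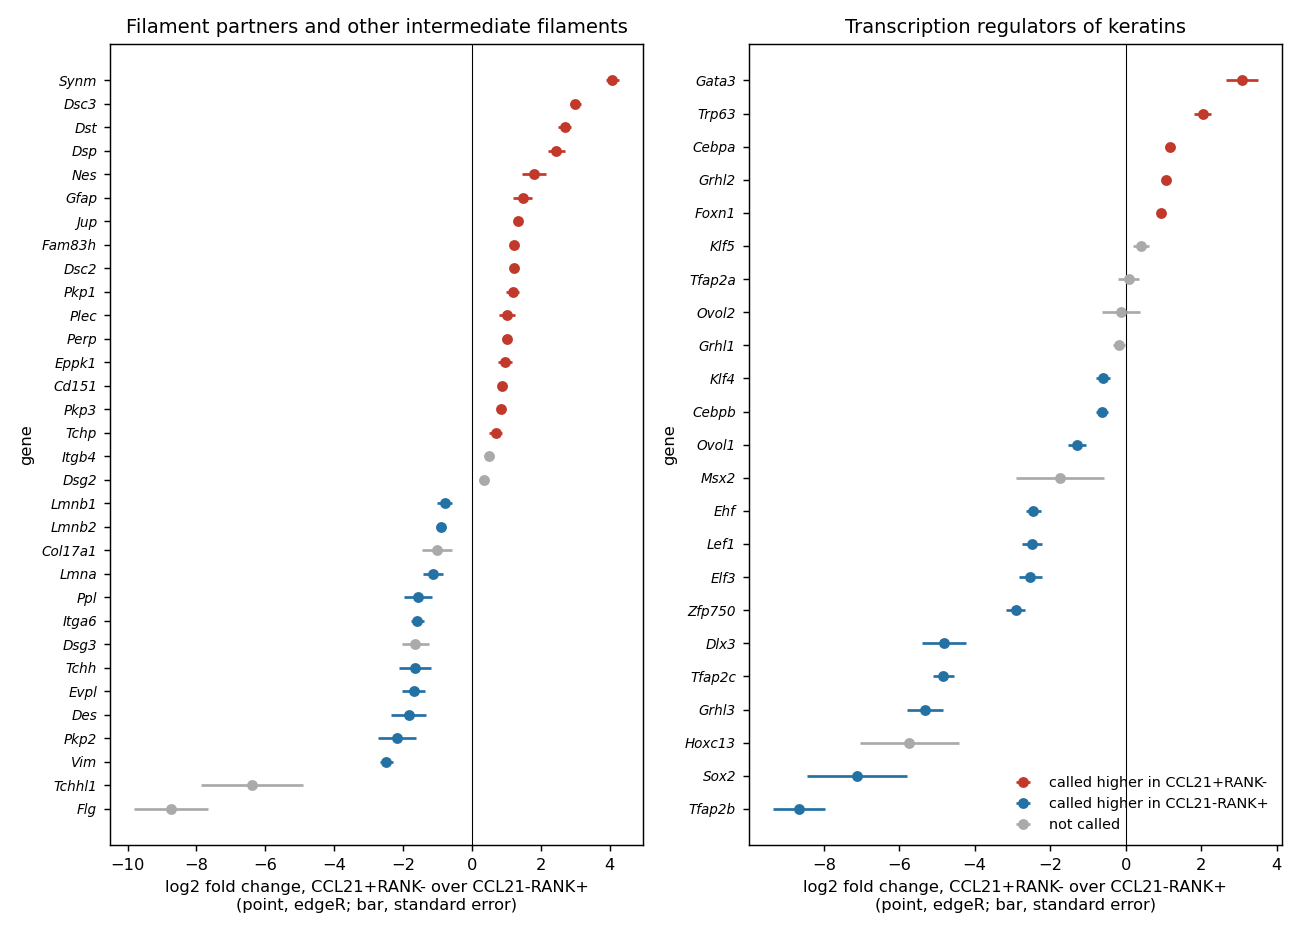
Log2 fold change of CCL21+RANK- over CCL21-RANK+ TECs for 32 filament partners, other intermediate filament genes included (left), and 23 of the 24 regulators (right). Bars are 1 standard error. *Hrnr*, at 0 counts in CCL21+RANK- TECs, is not drawn. Red points were called higher in CCL21+RANK- TECs (16 partners and 5 regulators), blue points higher in CCL21-RANK+ TECs.

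Of 24 transcription factors of keratin genes or of epithelial differentiation, 5 were called higher in CCL21+RANK- TECs (*Trp63*, *Grhl2*, *Cebpa*, *Foxn1* and *Gata3*) and 13 higher in CCL21-RANK+ TECs, beside 15.4% of all tested genes in each direction, with a median log2 fold change of -1.08. *Gata3* was at 29.2, 9.90 and 10.25 RPKM in CCL21+RANK- libraries, highest in replicate 1 as were the parathyroid genes, and without that library its log2 fold change was 2.38 (adjusted p = 3.04e-05, edgeR). The part of parathyroid transcripts in its level was not tested. *Grhl3* was at 8.89, 3.40 and 3.51 RPKM in CCL21-RANK+ libraries and at 0.319 RPKM or less elsewhere, with replicate 1 the highest. *Tfap2c* was at 12.8, 9.70 and 10.8 RPKM against 0.431 RPKM or less, a log2 fold change of -4.83 ± 0.27 (SE, adjusted p = 1.07e-06, edgeR). *Tfap2b* and *Sox2* had larger log2 fold changes from lower levels, with means of 2.34 and 1.07 RPKM in CCL21-RANK+ TECs and of 0.00515 and 0.00588 RPKM in CCL21+RANK- TECs. *Sox2* was also at 0.835 RPKM in CCL21-RANK- replicate 2, above CCL21-RANK+ replicate 2 at 0.514 RPKM, and did not pass the test between these populations (adjusted p = 0.363, edgeR). *Hoxc13*, the regulator of hair shaft keratins, was at 0.241, 0.259 and 0.105 RPKM in CCL21-RANK+ libraries and at 0.00883 RPKM or less in the other 5. It had an adjusted p of 0.00589 against CCL21+RANK- TECs in edgeR but was below the 1 RPKM needed for a call. Of the regulators, 4 were called higher in CCL21+RANK- than CCL21-RANK- TECs (among them *Gata3*, *Grhl1* and *Klf4*) and 0 lower with edgeR, beside 4.35% and 3.66% of all tested genes, where 4 genes had an unadjusted p under 0.05 and DESeq2 called 0. Comparing CCL21-RANK+ with CCL21-RANK- TECs, 12 were called higher in the former and 4 in the latter, beside 14.4% and 15.1% of all tested genes. Among those called, *Tfap2b*, *Tfap2c*, *Grhl3* and *Zfp750* had the largest log2 fold changes, 6.73, 5.24, 4.17 and 3.15.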

How the data were processed

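CD45-EpCAM+ TECs were sorted at E17 into 3 populations, and RNA-sequencing gave 8 libraries. The authors deposited expected counts for each gene in a single table. RSEM made them, and it shares out reads that fit more than 1 gene. The submitters' processing notes name bcl2fastq 2.20, Trimmomatic, STAR 2.5.1, RSEM 1.3.1 and mm10, while the paper names CLC Genomics Workbench. The library kit is NEBNext Ultra II Directional in the sample records and TruSeq Stranded Total RNA in the paper. The annotation and strand setting of the counting are not given in the sources used here. Between 4.46% and 5.94% of the values in a library were not whole, and the expected counts were rounded for the tests. Totals were 42751858 to 71625319 counts, and intervals and floors (3 counts) cover counting error only.

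All 55450 identifiers matched GENCODE M21 (GRCm38), which gave the summed exon lengths for RPKM. A fit of 3 group means to 8 libraries in edgeR 4.0.16 (R 4.3.3) used TMM normalization, the default expression filter, the quasi-likelihood test and Benjamini-Hochberg adjustment. The common biological coefficient of variation was 0.326. Standard errors were derived from the quasi-likelihood F. The script was tested on simulated data.

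Classes of keratins, partners, regulators and markers were listed with earlier results of these data known, as were the members. Keratins with a mean of 1 RPKM or more, or called, were named, and of each list up to 4 called genes with the largest fold change per comparison. *Dsp*, *Vim*, *Itga6*, *Flg*, *Tchh*, *Hoxc13*, *Ppl* and *Evpl* were named after their values were seen. Alternatives were DESeq2 1.42.0 and its size factors, upper-quartile scaling, other filters and thresholds, the libraries compared alone, the replicate number as a block, another gene length, removal of *Gm26917* and *Gm42418*, and leaving out each library. Those on partners, regulators and ratios were added after the data were seen. A regulator that is counted in its list is not reported here by name.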

Additional observations from a re-analysis of the deposited data

How the results depend on the processing

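When each library was left out in turn, the comparison of CCL21+RANK- with CCL21-RANK+ TECs gave 4 keratins called higher and 25 to 31 called lower in the former, with 25 without CCL21-RANK+ replicate 1. Requiring at least 10 counts in every library left 8 called in the latter direction, and 10 called higher in CCL21-RANK+ TECs against CCL21-RANK- TECs. That filter drops any gene with under 10 counts in a library, as many of these keratins had outside CCL21-RANK+ TECs. It left 14615 genes to test, against 21451. In the comparison of CCL21-RANK+ with CCL21-RANK- TECs, leaving out each library gave 25 to 32 and 2 to 3 keratins. Comparing CCL21+RANK- with CCL21-RANK- TECs, 3 to 4 keratins were called higher and 0 to 3 lower, where 1 was lower without CCL21+RANK- replicate 2 and 0 were without replicate 2 of CCL21-RANK- TECs. In that comparison 3 to 10 partners were called higher and 2 to 4 lower, with the 3 found without CCL21-RANK- replicate 1 and the 2 without its replicate 2, and regulators called higher numbered 2 to 4, with 2 when either CCL21-RANK- library was left out. At a 2-fold threshold 2 regulators were called higher there, and at an adjusted p alone 2 were called lower. Also at a 2-fold threshold, 2 regulators were called lower in CCL21-RANK+ TECs when set against CCL21-RANK- TECs. The causes of these changes were not tested. The other counts of calls stayed within 1.5 times, and the shares and ratios of classes within 1 SD, under the alternatives run.

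Of the log2 fold changes of named genes that were recomputed, those that changed sign were of *Krt6a*, *Krt18* and *Krt15*. For *Krt6a*, comparing CCL21+RANK- with CCL21-RANK+ TECs, leaving out each library gave -0.81 to 0.64, with positive values of 0.27 without CCL21+RANK- replicate 3 and 0.64 without replicate 1 of CCL21-RANK+ TECs. For *Krt18*, comparing CCL21+RANK- with CCL21-RANK- TECs, values were 0.027 with DESeq2 and with its size factors, 0.015 with upper-quartile scaling and 0.042 with at least 10 counts, and leaving out each library gave -0.083 to 0.041. For *Krt15*, comparing CCL21-RANK+ with CCL21-RANK- TECs, values were 0.101 with DESeq2 size factors, 0.094 with upper-quartile scaling, 0.102 with DESeq2, 0.013 with no filter, 0.167 with at least 10 counts, 0.0071 without *Gm26917* and *Gm42418*, and -0.76 to 1.48 when each library was left out. It passed the test at 1.48, without replicate 2 of CCL21-RANK- TECs (adjusted p = 0.0313, edgeR). The call of *Krt7* in this comparison was lost with DESeq2 size factors (adjusted p = 0.0950, edgeR), with which the median log2 fold change of all genes moved from 0.06 to 0.20. Without *Gm26917* and *Gm42418*, which took 8.36% to 23.2% of the counts, mean levels were higher, such as 2613 RPKM for *Krt18* in CCL21+RANK- TECs.

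Replicate numbers are shared between populations, but the sources do not say what they pair. Deviations from the population means correlated at 0.126, 0.0485 and 0.0707 for libraries of CCL21+RANK- and CCL21-RANK+ TECs with the same number, each the highest among CCL21-RANK+ libraries for that CCL21+RANK- library, and those of same-numbered libraries were negative with CCL21-RANK- TECs. The 2 CCL21-RANK- libraries deviate by equal and opposite amounts. Their correlations with any library therefore have opposite signs and are not separate observations. With the replicate block, 4 and 28 keratins were called between the former, 4 and 3 comparing CCL21+RANK- with CCL21-RANK- TECs, and 31 and 3 comparing CCL21-RANK+ with CCL21-RANK- TECs, where the log2 fold change of *Krt15* was 0.17. The block moved no count of calls by over 1.5 times, and *Krt6a* and *Krt19* passed the test with it in the last comparison. Having 2 libraries, the CCL21-RANK- population has the least precise values.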
